A study of Homo sapiens with 2 samples.

Results

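The chromatin remodeller CHD4 was examined at the replication-dependent histone genes of chromosome 6. The genes are the protein-coding entries of GENCODE release 44, mapped to GRCh37, that lie between chr6:25700000-28000000 and whose symbols begin with H1-, H2AC, H2BC, H3C or H4C. This rule gave 51 genes of 20163 protein-coding genes on chromosomes 1 to 22, X and Y. Of 60126 CHD4 peaks in the deposited list, 55 overlapped one of these genes or the 1000 bp on either side of it. The cells were 501Mel, an established human melanoma line, with no treatment named in the labels. The data comprise 1 CHD4 ChIP library and 1 input library of sonicated chromatin fixed with 0.4% paraformaldehyde, and the peak list is the only file. With 1 library of each kind, no value below has a replicate error and no test between conditions could be made. The list gives no read counts, so the depth behind each peak is unknown, and the intervals on shares of genes cover counting error only.

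Histone genes of this kind are switched on as DNA is copied and supply the proteins that package the new DNA. H2A, H2B, H3 and H4 form the core of the nucleosome and H1, the linker histone, binds where DNA enters and leaves it. The genes are short, have no introns, and their mRNAs end in a conserved stem-loop in place of a poly(A) tail. Many H2A and H2B genes stand head to head, sharing a short stretch between their starts. CHD4 is the ATPase of NuRD, a complex that moves nucleosomes and removes acetyl groups from histones.

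In GENCODE, the canonical transcript of every one of the 51 genes is a single exon of 386 to 797 bp (median 487 bp). The genes comprise 6 for H1, 12 for H2A, 13 for H2B, 10 for H3 and 10 for H4, of which 24 are on the plus strand and 27 on the minus strand. Some gene models are much longer than the canonical transcript. In 10 genes the model exceeds 2000 bp, and that of *H2BC4* runs to 37610 bp and spans other genes. Distances to the canonical transcript are therefore given beside those to the gene model. A further H4 gene carries its older symbol, *HIST1H4B*, in this annotation, so the rule did not take it. It lies at chr6:26027124-26027480, inside the peak at chr6:26025596-26031651.

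The stretches before the gene starts differ from other promoters in their sequence. The 250 bp before the start were searched on both strands for the CCAAT box (CCAAT), the TATA box (TATAAA), the octamer bound by OCT1 (ATTTGCAT), the H1 box (AAACACA) and a string from the H4 promoter element (GGTCCG). The CCAAT box was found in 45 of 51 histone genes and in 34.1% of 19811 other protein-coding promoters of that length. The TATA box was found in 35 histone genes, against 9.11% of the other promoters. The octamer was present in 10 of 12 H2A genes and 10 of 13 H2B genes and in no H1, H3 or H4 gene, against 1.44% elsewhere. All 6 H1 genes held the H1 box, which no other histone gene had and 3.61% of other promoters had. The H4 string was in 8 of 10 H4 genes and 1 H3 gene, against 12.2% of other promoters. The median GC content of these stretches was 42.0% in the histone genes and 63.2% in the others. Matches on the 2 strands may overlap, and they describe letters, not binding. The 250-bp stretches of an H2A and an H2B gene standing head to head largely coincide, so 1 match can count for both genes.

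The stretches below are shown because they include both ends of the range of CHD4 coverage. They are read from GRCh37 5′ to 3′ and stop before the annotated starts, and capitals mark the motif matches named above on either strand. *H2BC12* and *H2AC12*, at chr6:27114635-27114884 on the plus strand, are, among the divergent pairs of an H2A with an H2B gene, the one whose nearby peak is strongest, although no base between their starts lies under a peak. The stretch of *H2AC15* and *H2BC15*, at chr6:27806154-27806346 on the plus strand, lies wholly under a peak and was chosen after this value was seen. The testis-type pair *H2AC1* and *H2BC1*, at chr6:25726791-25727004 on the plus strand, has no peak. The 250 bp before *H1-2*, at chr6:26056699-26056948, and before *H4C4*, at chr6:26189341-26189590, are given on the minus strand. These are the unpaired genes with the strongest peaks, and the first is free of peak bases while all 250 bases of the other lie under a peak.
H2BC12/H2AC12: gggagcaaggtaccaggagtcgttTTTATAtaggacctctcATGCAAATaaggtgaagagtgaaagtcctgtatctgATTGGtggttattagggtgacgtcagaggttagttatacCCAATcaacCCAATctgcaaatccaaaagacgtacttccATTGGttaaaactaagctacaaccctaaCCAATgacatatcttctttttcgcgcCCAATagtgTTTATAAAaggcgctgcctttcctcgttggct
H2AC15/H2BC15: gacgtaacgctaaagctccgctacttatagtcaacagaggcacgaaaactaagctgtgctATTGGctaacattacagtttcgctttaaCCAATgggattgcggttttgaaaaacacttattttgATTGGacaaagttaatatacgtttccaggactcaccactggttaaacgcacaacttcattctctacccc
H2AC1/H2BC1: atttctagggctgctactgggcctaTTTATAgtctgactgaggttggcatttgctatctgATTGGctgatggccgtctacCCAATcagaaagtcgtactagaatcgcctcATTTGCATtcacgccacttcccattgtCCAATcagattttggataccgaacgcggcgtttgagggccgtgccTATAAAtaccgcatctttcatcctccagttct
H1-2: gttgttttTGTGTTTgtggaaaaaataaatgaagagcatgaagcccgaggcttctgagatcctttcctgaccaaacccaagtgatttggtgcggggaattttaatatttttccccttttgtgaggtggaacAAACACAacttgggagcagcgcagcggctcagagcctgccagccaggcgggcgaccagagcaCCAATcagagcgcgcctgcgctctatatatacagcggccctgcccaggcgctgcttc
H4C4: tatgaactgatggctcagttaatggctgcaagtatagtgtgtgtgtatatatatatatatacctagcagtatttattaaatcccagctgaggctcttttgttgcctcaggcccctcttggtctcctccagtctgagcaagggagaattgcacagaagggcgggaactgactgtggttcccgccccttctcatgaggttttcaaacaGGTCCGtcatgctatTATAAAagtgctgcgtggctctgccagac

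At the other end of the genes, 49 of 51 had a stem-loop of a 6-bp stem and a 4-base loop within 150 bp after the coding sequence, lying 25 to 65 bp after it (median 38 bp). None was found in that window for *H2AC11* and *H2AC15*. The 3 commonest of 7 forms are shown with the paired bases in capitals, since they separate the H4 genes from the others. The first was found in 30 genes of the H1, H2A, H2B and H3 families, the next in 7 genes, all of them for H4, and the last in 7 genes for H1, H2B and H3.
common form: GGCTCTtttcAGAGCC
H4 form: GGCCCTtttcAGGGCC
adenine-loop form: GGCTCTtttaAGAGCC

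CHD4 peaks lay near most of the histone genes. A peak overlapped the gene or its 1000-bp flanks in 40 of 51 genes, which is 78.4% (Wilson 95% interval 65.4 to 87.5%). The same rule held for 58.2% of all protein-coding genes, and for 47% of those no longer than the longest histone gene model. Against the canonical transcript alone, 38 of 51 histone genes (74.5%, interval 61.1 to 84.5%) had a peak within 1000 bp, compared with 56% of all protein-coding genes. Among genes of like structure the share was lower. Of 385 other protein-coding genes whose canonical transcript is a single exon of at most 1000 bp, 8.05% had a peak within 1000 bp of it. Of these, 161 are olfactory receptor genes, and 2 of them had a peak, while 29 of the remaining 224 (12.9%, interval 9.17 to 18%) did. Within 1000 bp of the canonical start itself, 36 of 51 histone genes (70.6%, interval 57.0 to 81.3%) had a peak, compared with 35.1% of all protein-coding genes and 7.27% of the other short single-exon genes.

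Fewer of the genes were themselves overlaid by a peak. A peak overlapped the canonical transcript in 17 of 51 histone genes (33.3%, interval 22 to 47.0%). This share was 46.1% over all protein-coding genes, which have longer transcripts, and 2.34% over the other short single-exon genes. Only 4 transcripts lay wholly under peaks, those of *H4C1*, *H2BC3*, *H4C4* and *H2AC15*, and 34 genes had no coding base under a peak.

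**Figure D1:**
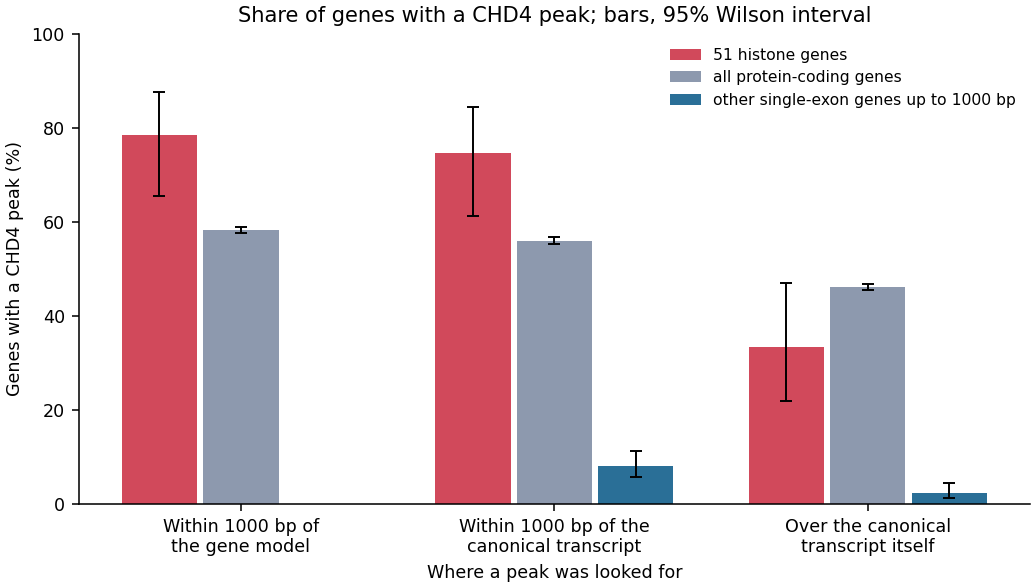
Share of genes (%, y axis) with a CHD4 peak at 3 definitions of nearness (x axis), for the 51 histone genes, all protein-coding genes and the 385 other single-exon genes with a transcript of at most 1000 bp; error bars are Wilson 95% intervals. The histone genes lead when flanks count (78.4% and 74.5%) and fall to 33.3%, under the 46.1% of all genes, when a peak must overlie the transcript.

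The peaks bordered the genes more than they covered them. Over the 51 genes, 35.4% of the bases from 2500 to 1000 bp before the start lay under peaks. This share was 33.3% from 1000 to 500 bp before the start and 30.8% from 500 to 250 bp before it. It was lower in the last 250 bp before the start (20.03%) and over the transcript (20.1%). Past the end it rose again, from 23.8% in the first 250 bp and 29.02% in the next to 40.5% between 500 and 1000 bp, and was 26.6% between 1000 and 2500 bp. Thus both the proximal promoter and the transcript formed a trough between flanks richer in peaks. Elsewhere in the gene stretches, more than 1000 bp from any of these transcripts, 19.04% of bases lay under peaks. The promoters and transcripts were therefore low against their near flanks, not against the rest of their stretches.

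Other protein-coding genes had less coverage, and it fell after the start as well. Their coverage rose from 6.59% at 2500 to 1000 bp before the start to 19.97% at 500 to 250 bp, with 14.5% in the last 250 bp and 2.18% over the transcript, which in most genes is far longer. In the other short single-exon genes it was 4.91% and 3.87% at 1000 to 500 and 500 to 250 bp before the start, 1.79% in the last 250 bp and 1.10% over the transcript. A dip at the start and over the transcript was thus not particular to the histone genes. Past the transcript end of all other protein-coding genes coverage stayed between 3.27% and 3.43%. In the other short single-exon genes it was 1.09% in the first 250 bp after the end. It was 1.72% from 250 to 500 bp and 1.44% from 500 to 1000 bp. A rise after the gene end was therefore seen in the histone genes and not in the genes at large, while the short single-exon genes rose by less. Neighbouring histone genes lie close together, however, and the flanks of one can be the flanks of another. In 8 histone genes a peak entered both 1000-bp flanks while no base of the transcript lay under one: *H3C2*, *H2AC4*, *H1-2*, *H2AC7*, *H3C7*, *H2AC11*, *H2BC12* and *H2AC14*.

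**Figure D2:**
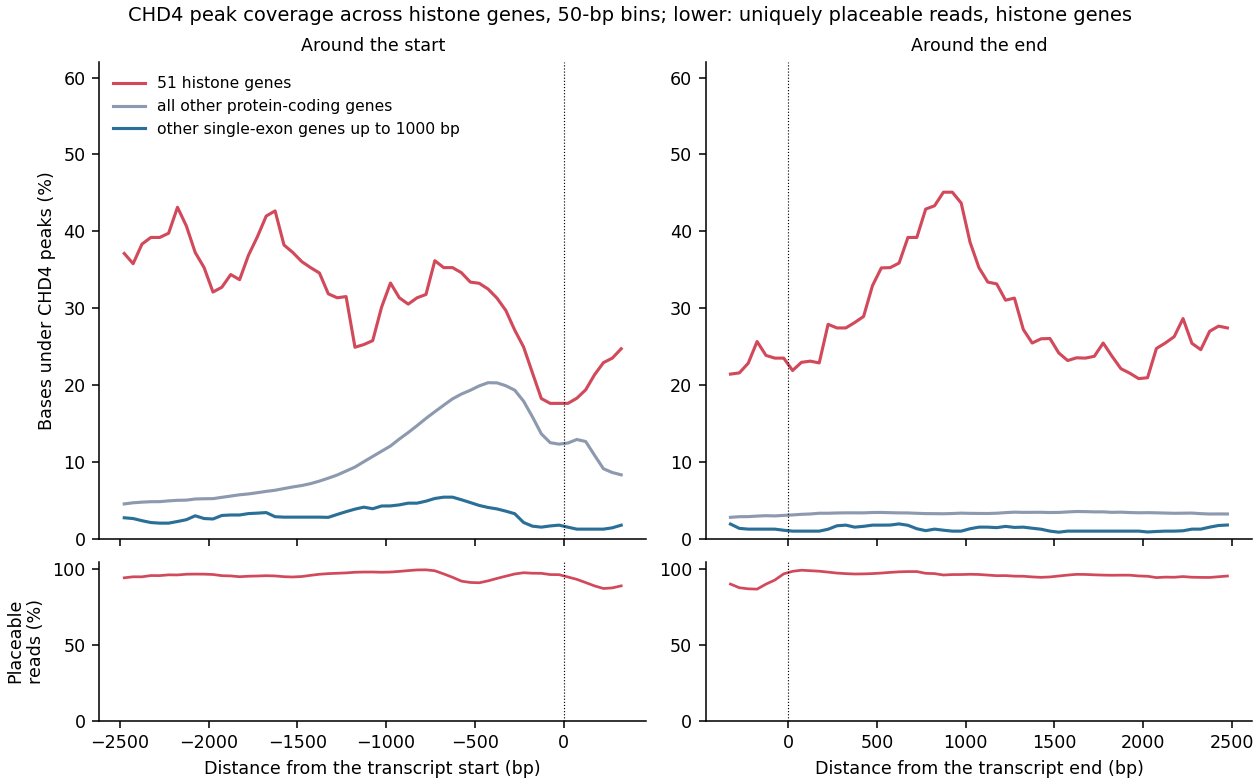
Upper panels, percent of bases under CHD4 peaks (y axis) in 50-bp bins by distance in bp from the transcript start (left) and end (right), for the 51 histone genes, all other protein-coding genes and the other short single-exon genes. Lower panels, percent of extended reads that could be placed at a single position in the histone genes. Coverage dips around the start and peaks again 500 to 1000 bp past the end (40.5%). Placeable reads are fewest inside the transcripts, down to 86.9% in a bin.

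Histone genes are near copies of each other, and the authors kept only reads with 1 position in the genome, so the placing of reads was examined at each base. In this annotation all 10 H3 genes encode 1 and the same protein, with 80.9 to 88.2% of coding bases shared between any 2 genes, and 9 of the 10 H4 genes encode 1 protein. Even so, the median gene had 100% unique strings of 50 bases in its coding sequence. The lowest were *H4C11* and *H4C12*, with none, and *H2AC14*, *H2AC13* and *H2BC12*, with 15.5%, 17.0% and 26.1%. Taking all reads that could cover a base after the extension of reads to fragment length, 92.2% could be placed over the transcripts and 97.1% over the 250 bp before the starts. No base of a transcript lay under a peak where under 50% of reads could be placed, which was 898 and 658 bases in the classes of 0 to 25% and 25 to 50%. Limited to bases where at least 90% of reads could be placed, coverage was 33.03% from 1000 to 500 bp before the starts, 21.9% in the last 250 bp, 21.4% over the transcripts and 40.6% from 500 to 1000 bp after the ends. The part of read placement in the lower coverage was not tested.

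Along the chromosome the genes fell into 4 stretches, separated by more than 100 kb, and peak density differed between them. The stretch from *H1-1* to *H4C8* holds 28 genes in 271 kb with flanks and had 50 peaks, covering 21.02% of its bases. The stretch from *H2BC11* to *H2AC12* holds 5 genes in 23.7 kb and had 11 peaks, covering 31.2%. The stretch from *H2BC13* to *H2BC17* holds 16 genes in 88.4 kb and had 20 peaks, covering 23.1%. All 5 genes of the second had a peak, 22 of 28 in the first and 13 of 16 in the last. By contrast, the 5.95 kb around the testis-type pair *H2AC1* and *H2BC1* had none.

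The surroundings were rich in peaks as well. The 2.3 Mb span held 248 peaks, or 108 per Mb, against 28.1 per Mb of chromosome 6 and 21.03 per Mb of the sequenced genome. The equal stretches directly before and after the span had 13.04 and 56.1 per Mb. Peaks covered 12.1% of the span and 1.97% of the genome. The 4 stretches make up 16.9% of the span and held 32.7% of its peaks. Among 25 other protein-coding genes of the span, 17 (68.0%, interval 48.4 to 82.8%) had a peak by the same rule, an interval that overlaps that of the histone genes. This group includes the H4 gene *HIST1H4B*. Peaks of *HIST1H4B*, *HFE* and ENSG00000282988 also counted for histone genes.

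**Figure D3:**
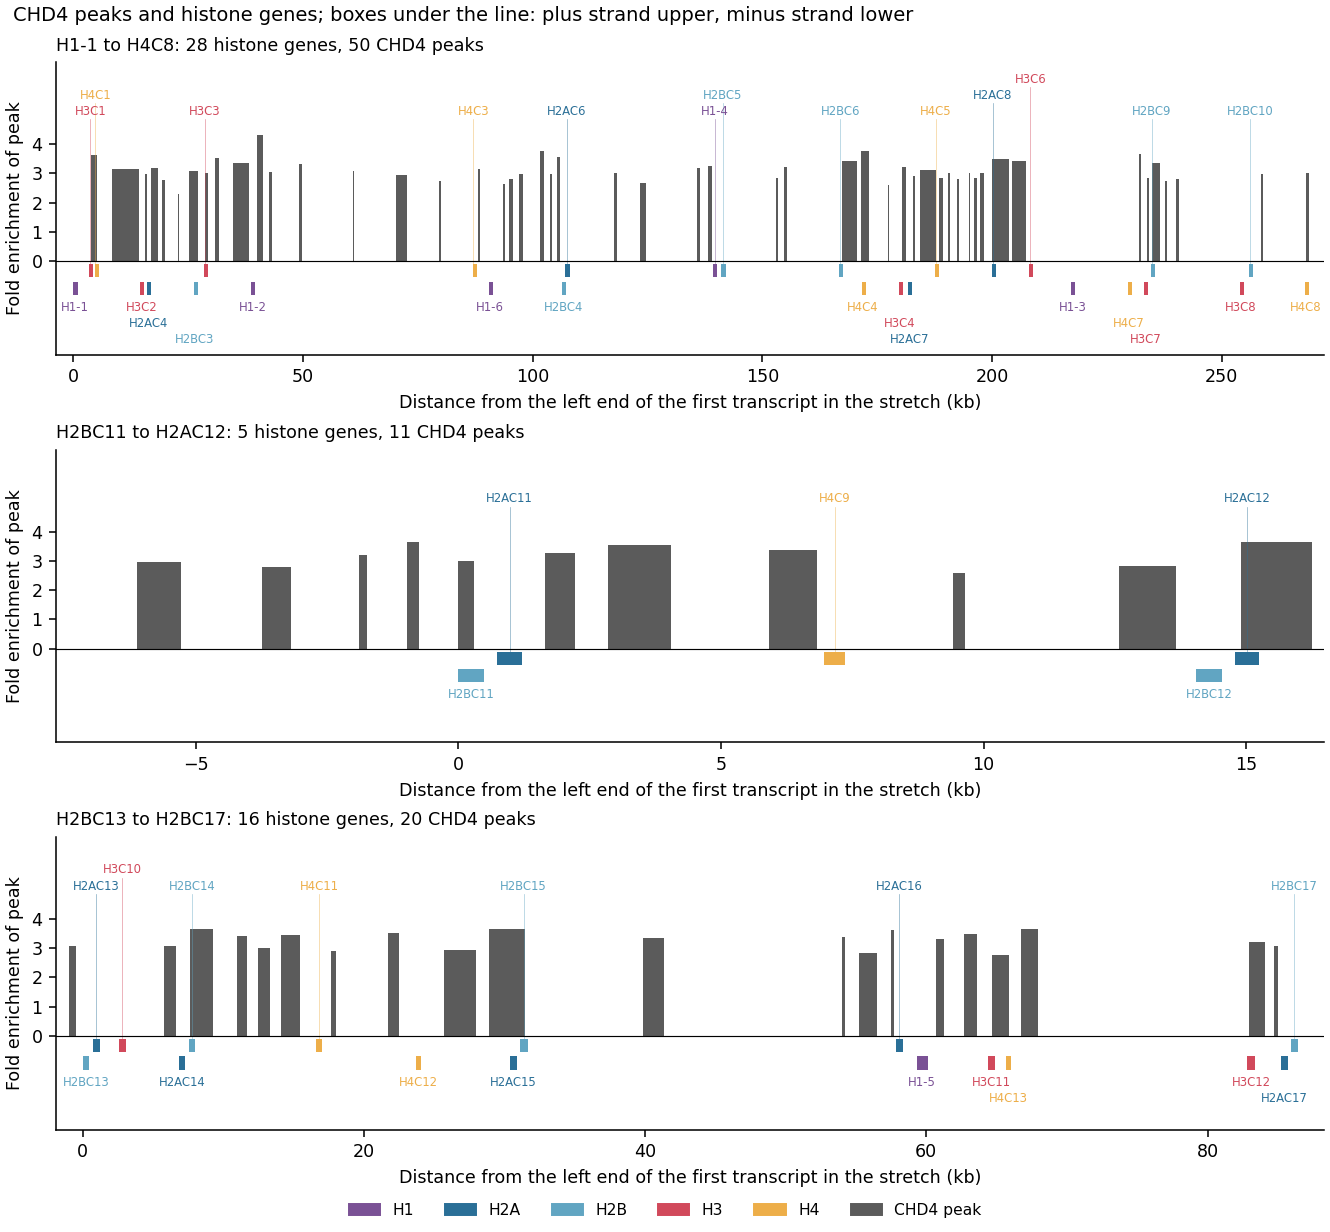
CHD4 peaks (grey; height, fold enrichment on the y axis) and canonical transcripts of histone genes (coloured boxes under the line, plus strand upper and minus strand lower) along the 3 stretches with peaks; x axis, distance in kb from the left end of the first transcript. The stretches hold 50, 11 and 20 peaks, none above a fold of 4.32, and many boxes sit in gaps between peaks.

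The peaks themselves were broad and of ordinary strength. Their median fold enrichment, the ratio of ChIP to background that the authors' peak caller gave, was 3.18 (range 2.64 to 4.32), compared with 3.09 over all peaks. The q-value is the peak caller's p-value after adjustment for the many places tested. The median −log10 q was 1.97 in both sets, and 26 of 55 (47.3%) had a q-value of 0.01 or less, against 48.5% of all peaks. A −log10 q of 5 was reached by 1 peak (1.82%), against 2.23% of all peaks. Their median length was 844 bp (up to 6056 bp), compared with 613 bp, and 30.9% were at least 1500 bp long, compared with 16.6% of all peaks. The other 193 peaks of the span had a median length of 753 bp, and 23.3% of them were at least 1500 bp long. Of the 55 peaks, the 14 that overlay a canonical transcript had a median length of 1656.5 bp, and the 41 that did not, 775 bp. A longer peak also overlaps a given gene or transcript more readily. Because the genes are close together, 13 peaks counted for more than 1 gene.

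Each gene was then described by its strongest peak, with a median fold enrichment of 3.36 over the 40 genes (2.92 to 4.32). This takes the highest of up to 9 peaks of a gene and counts a shared peak for each of its genes. Peak by peak, the median was 3.18, against 3.09 over all peaks. The values of the 40 genes lay close together, and with no replicate their order has no measured error.

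**Figure D4:**
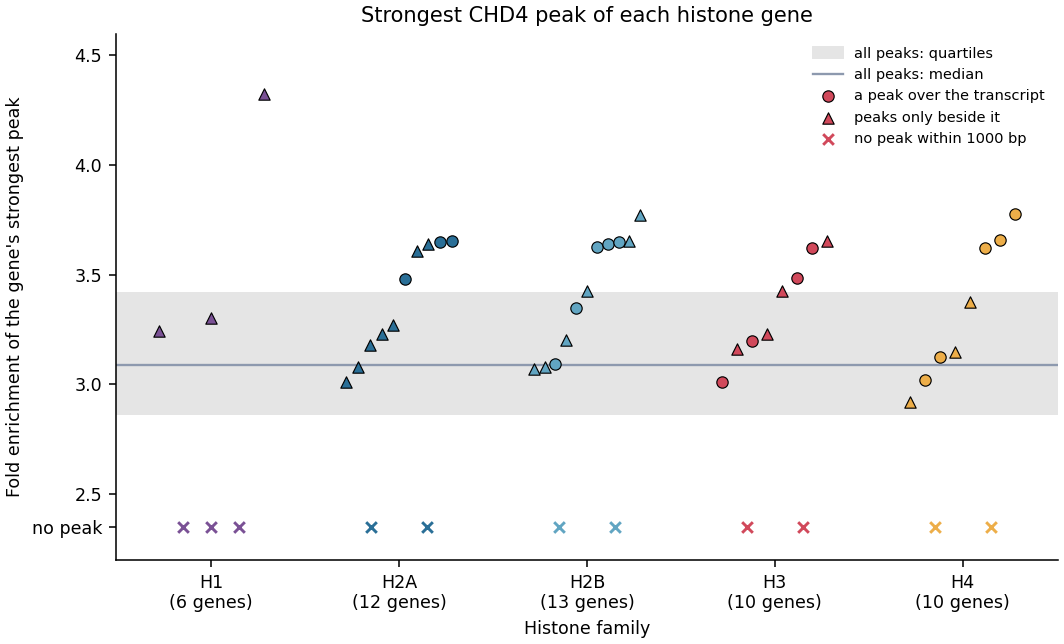
Fold enrichment of the strongest peak (y axis) of each of the 51 histone genes by family (x axis); circles are genes with a peak over the transcript, triangles genes with peaks only beside it, crosses genes with none within 1000 bp, and the grey band and line the quartiles and median (3.09) of all peaks. One H1 gene stands at 4.32, the other genes with a peak lie between 2.92 and 3.78, and no H1 gene is a circle. The band is drawn from single peaks, while each gene is shown by the highest of its peaks.

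Among the linker histone genes, 3 of 6 had a peak and none had one over its transcript. *H1-2* (ENSG00000187837, chr6:26055968-26056698, minus strand), which encodes a somatic H1, had the strongest peak of all 51 genes. This peak, at chr6:26057205-26058498, reached 4.32 in fold and 5.04 in −log10 q, a fold above that of 97.6% of all peaks. It was picked as the highest of 55 peaks, so a high rank among all peaks was likely. It ended 507 bp short of the start, outside the transcript, and a second peak of fold 3.36 followed 429 bp past the gene end. *H1-5* and *H1-4*, also somatic linker genes, had peaks of fold 3.30 and 3.24 before their starts, at 557 and 316 bp. *H1-1*, *H1-3* and *H1-6* had none. The nearest peaks of *H1-1* and *H1-3* lay 2983 and 9872 bp away, and that of the testis-type *H1-6* 1880 bp away.

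A peak lay over the transcript in 5 of 10 H4 genes. This compares with 4 of 10 H3, 5 of 13 H2B, 3 of 12 H2A and 0 of 6 H1 genes, counts that differ by few genes. The share over all protein-coding genes was 46.1%. *H4C4* (ENSG00000277157, chr6:26188938-26189340, minus strand) was the strongest, with a peak of fold 3.78 (−log10 q, 3.39) at chr6:26188799-26190503 that covered the whole transcript and its 250-bp promoter. *H4C1* was also wholly covered, by a peak of fold 3.62 at chr6:26020998-26022498 that reached back over 37.2% of the transcript of *H3C1*. *H4C13*, with 57.1% of its transcript under a weaker peak of fold 2.76, owed its fold of 3.66 to a separate peak before its start at chr6:27842013-27843196. *H4C5* and *H4C8* were covered in part (56.6% and 26.7%), at fold 3.13 and 3.02. *H4C9*, *H4C3* and *H4C11* had peaks beside the gene, of fold 3.38, 3.15 and 2.92. *H4C7*, whose protein departs from that of the other H4 genes, had none, and neither did *H4C12*. The coding sequences of *H4C11* and *H4C12* hold no unique 50-base string; reads lying wholly inside them were therefore not kept.

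Of the H3 genes, 8 of 10 had a peak and 4 had one over the transcript. *H3C7* led, with a peak of fold 3.66 past its end at chr6:26249240-26249728 and none over the transcript. *H3C1*, *H3C11* and *H3C12* were covered over 37.2%, 36.9% and 78.1% of their transcripts, and their strongest peaks had fold 3.62, 3.49 and 3.20. *H3C3* was covered over 24.9% at fold 3.01. *H3C6*, *H3C4* and *H3C2* had peaks only beside them, of fold 3.43, 3.23 and 3.16. The peak of *H3C2* was the longest at any of the genes, 6056 bp, and stopped 166 bp from the transcript. *H3C8* and *H3C10* had none, although all their 50-base strings were unique. The 8 H3 genes with a peak and the 2 without thus encode the same protein.

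Among H2A genes, 10 of 12 had a peak, over the transcript in 3. *H2AC15* was wholly covered, by the peak of fold 3.65 at chr6:27804142-27806732 that runs on over 71.2% of *H2BC15*. *H2AC12* was covered over 75.1%, by the peak of fold 3.65 at chr6:27114999-27117157, and *H2AC8* over 61.3% at fold 3.48. The others with a peak had it beside the gene. *H2AC14*, *H2AC16*, *H2AC11*, *H2AC7*, *H2AC4* and *H2AC17* had fold 3.64, 3.61, 3.27, 3.23, 3.18 and 3.08. *H2AC6* (fold 3.01) had one only through its long gene model, and the peak nearest to its canonical transcript, 1199 bp away, was another one. *H2AC13* and the testis-type *H2AC1* had none.

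Of the H2B genes, 11 of 13 had a peak, over the transcript in 5. *H2BC3* was wholly covered at fold 3.09, and *H2BC14*, *H2BC15*, *H2BC11* and *H2BC9* were covered over 82.3%, 71.2%, 63.8% and 46.3%. The strongest peaks of these last 4 had fold 3.64, 3.65, 3.63 and 3.35, that of *H2BC14* at chr6:27782883-27784490 and that of *H2BC11*, off its transcript, at chr6:27099114-27099341. *H2BC4* had 9 peaks, because of its long model, and the strongest, of fold 3.77 at chr6:26118832-26119697, was centred 4889.5 bp past its start. The only one of them within 1000 bp of its canonical transcript lay 494 bp past it and had fold 3.56. A pair of those 9 peaks also counted for *HFE*, an iron regulator that the long model overlaps. *H2BC12* had fold 3.65 before its start, *H2BC6* 3.43, *H2BC17* 3.08 and *H2BC13* 3.07, all off the transcript. *H2BC5* (3.20) had peaks only through its long model, and the peak nearest to its canonical transcript, 2109 bp away, lay outside the model and its flanks. *H2BC10* and the testis-type *H2BC1* had none.

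The testis-type genes stood without a peak in all 3 cases, *H2AC1*, *H2BC1* and *H1-6*, against 40 of the other 48 genes (83.3%). These encode histones made in male germ cells. The pair *H2AC1* and *H2BC1* is also the most isolated, 86846 and 90226 bp from the nearest peak. With 3 genes the Wilson interval of a share of 0 reaches 56.1%. The rule's limit of 1000 bp separated few genes narrowly. Just inside it stood *H4C3* and *H2BC17*, with the nearest peak at 845 and 928 bp, and just outside *H2AC13* and *H4C12*, at 1200 and 1232 bp.

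Most of the 9 divergent pairs, whose starts face away from each other within 1000 bp, had no peak between the starts. The same held for other divergent pairs. Between the starts, peaks were present in 2 pairs (22.2%), *H2AC15/H2BC15* (all 193 bp) and *H3C7/H2BC9* (28.1% of 978 bp). The other 7 pairs, all of H2A with H2B, had no base between the starts under a peak. In 4 pairs (*H2BC11/H2AC11*, *H2BC12/H2AC12*, *H2AC14/H2BC14* and *H3C7/H2BC9*) a peak covered part of 1 transcript and none of the other. For *H2BC12/H2AC12* the strong peak began 115 bp past the stretch between the starts, within *H2AC12*, and left both the shared promoter and *H2BC12* uncovered. Over all pairs 16.4% of the bases between the starts lay under peaks, compared with 23.3% in 849 other divergent protein-coding pairs, of which 24.6% were touched. Both shares of bases were above the 1.97% of the genome under peaks. Between *H2BC13* and *H2AC13* and between *H2AC14* and *H2BC14*, 84.3% of reads could be placed, and over 99% in the other pairs.

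The promoter motifs were found in genes with and without a peak. The CCAAT box was found in 36 of 40 genes with a peak and in 9 of 11 without, and the TATA box in 27 of 40 and 8 of 11. The octamer was found in 17 of 40 and 3 of 11. The H1 box was in the 3 H1 genes with a peak and the 3 without alike, and the common stem-loop was carried by 25 genes with a peak and 5 without. With 11 genes lacking a peak, such counts have wide error.

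Histone genes elsewhere and the factors that serve them were read the same way. Of 14 annotated S-phase histone genes on chromosomes 1 and 12, 5 (35.7%, interval 16.3 to 61.2%) had a peak: *H2AC20*, *H2AC21*, *H2BC21*, *H2AC25* and *H4C16*, with fold 2.93 to 3.57. This interval ends below that of the chromosome 6 genes (65.4 to 87.5%) but holds the 58.2% of all protein-coding genes. Neighbouring genes can share a peak, and *H2AC20* and *H2BC21* had the same strongest fold (3.57). The genes are therefore not independent, and whether the shares differ was not tested. How far reads could be placed at these 14 genes was not examined. The part of read placement in their lower share was therefore not tested. Of the replacement histone genes, which are also expressed outside S phase, 6 of 11 had a peak (54.5%, interval 28.01 to 78.7%). The strongest were at *CENPA*, the centromeric H3 (fold 4.37), and *H2AZ2* and *H2AZ1*, which encode H2A.Z (4.29 and 4.07). Of the regulators and processing factors, 14 of 20 (70.0%, interval 48.1 to 85.5%) had a peak, in genes of a median 30122.5 bp. *NPAT*, the coactivator of histone transcription, had a peak of fold 2.82 and *CASP8AP2*, a factor of histone mRNA processing, one of 3.65. None was found at *SLBP*, which binds the stem-loop, *HINFP*, which binds H4 promoters, or *LSM11*, a part of the U7 snRNP. All 3 shares are to be read against the 58.2% of all protein-coding genes.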

How the data were processed

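The data are 1 CHD4 ChIP and 1 input library from 501Mel cells. Per the paper's methods, 50-base single-end reads were aligned by the authors against hg19 in Bowtie, only those with 1 position being kept, and MACS broad peaks were called on reads extended to fragment length. The submitters' processing notes name bcl2fastq 2.17.1.14, Bowtie 1.0.0 and MACS2 2.1.1.20160309. The use of the input as control is not stated in the sources used here and was assumed. The deposited peak list gives, per region, the authors' fold enrichment (a ratio) and the authors' −log10 p-value and −log10 q-value, the smallest −log10 q being 1.00. It gives neither read counts nor levels in the input.

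Peak positions, 1-based, were intersected with GENCODE release 44 as lifted to GRCh37. An overlap of 1 bp counted. All protein-coding genes include the 51 histone genes, and comparisons with transcripts use the 19881 genes with a canonical coding transcript. A string of 50 bases was unique if it occurred at 1 place in GRCh37 on either strand. Intervals are Wilson intervals at 95%; genes and peaks are not replicates, and no test was made. The genes and lists were chosen with earlier results of these data known. Named in full were the 10 genes with the highest fold, all genes without a peak, the testis-type genes and the divergent pairs. Of 17 S-phase histone genes listed elsewhere, 14 were matched by symbol, and 1 gene of the replacement histone list is not reported here. Overlap, coverage and uniqueness functions were tested on simulated data. Alternatives covered stricter q-values, joined peaks, other flanks and other overlaps. Python 3.11.15, numpy 2.4.6, pandas 2.3.3, scipy 1.17.1 and matplotlib 3.10.9 were used.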

Additional observations from a re-analysis of the deposited data

How the results depend on the processing

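The number of histone genes with a peak stayed within 1.5 times of 40 in 8 of 10 alternatives, from 28 genes at a −log10 q of at least 2 to 48 genes with flanks of 5000 bp. Part of this was fixed in advance. With 51 genes the count cannot rise beyond 1.5 times 40. Leaving out the testis-type genes removes only genes without a peak, so that count had to stay at 40. The number of genes fell to 22 (43.1%) without flanks, where the share of all protein-coding genes was 50.8% and the lead of the histone genes was gone. At a −log10 q of at least 5, 1 gene (1.96%) and 4.77% of all protein-coding genes were left, so the lead was gone there too. At a −log10 q of at least 2 (54.9%, interval 41.4 to 67.7%) and with 50% of the peak inside (66.7%, interval 53 to 78%) the interval of the histone genes held the share of all genes. The share of all protein-coding genes was 43.2% at a −log10 q of at least 2, 64.2% with flanks of 5000 bp, 56.8% where 50% of the peak had to lie inside, 35.1% within 1000 bp of the start, 56.0% around the canonical transcript (an alternative added after the data were seen) and 66.2% on chromosome 6, which lies inside the interval of the histone genes (65.4 to 87.5%). The median fold of the peaks was 3.48 and 4.32 at the stricter thresholds of 2 and 5. Of 43 genes with at least 90% unique strings of 50 bases, 34 (79.1%) had a peak, and of the other 8, 6 did. The list gives no depth, so peaks missed for lack of reads could not be counted. No paired analysis was possible because the labels give no replicate numbers.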
